A study of Cavia porcellus with 34 samples.

Results

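The genes described here are the interleukins, the CC and CXC chemokines, the tumour necrosis factor (TNF) superfamily ligands and the receptors of each, measured in the paraventricular nucleus (PVN) of female guinea pigs. They were chosen by symbol alone, as every gene whose upper-case symbol begins with IL, CCL, CXCL, CCR or CXCR followed by a digit, or with TNFRSF or TNFSF. The rule found 56 genes of the 12590 that the tables of 3 generations name between them, and 19 of these were ligands, 36 were receptors and 1, IL4I1, was an enzyme. Of the 12114 genes listed for F1, 48 were members, as were 50 of the 12207 for F2 and 52 of the 12068 for F3. With a mean value of at least 10 required, 45 were tested in F1, 44 in F2 and 48 in F3, and 40 were tested in every generation.

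Pregnant guinea pigs (F0) received repeated injections of the synthetic glucocorticoid betamethasone (sGC) or of saline (Veh), and their F1 offspring were therefore exposed in utero. Exposed males were mated with untreated purchased females to give a paternal line of F2 and then F3 offspring, whose own pregnancies were not treated. RNA was taken by micropunch from female brains on postnatal day 40. F1 and F2 gave 5 animals for each treatment, and F3 gave 6. A punch holds every cell type at the site, so fewer cells of a type and less RNA per cell cannot be told apart. Animals are called by the number in their library title, and because the numbers SGM21 and SGM22 occur in both F2 and F3, the generation is given with them.

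Interleukins, chemokines and TNF ligands are secreted or membrane-bound signals that cells of the immune system, glia, neurons and vessels use to alert, attract or kill one another. Interleukin receptors signal mostly through JAK and STAT proteins or, in the IL-1 and IL-17 families, through MYD88 or ACT1 to NF-κB, chemokine receptors act through G proteins, and TNF receptors act through TRAF or death-domain adaptors. In the hypothalamus IL-1 and IL-6 are known for activating the neurons that release corticotropin-releasing hormone, the start of the stress axis that glucocorticoids restrain.

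The deposited values are normalised counts rounded to whole numbers, and their sum per animal ranged from 15573233 to 21935501 in F1, from 15645962 to 19435104 in F2 and from 18692048 to 18977539 in F3. Each generation was normalised apart, so values are compared between Veh and sGC within a generation only. In the deposited values 1, 1 and 2 directions of variation between animals were nearly empty in F1, F2 and F3. Their largest singular value was 0.904, 1.04 and 0.803, against 14.77, 14.33 and 11.19 for the smallest kept. In F1, SGM11 was the highest Veh animal for 0 of 11874 genes. The animals are thus not fully independent values, and SD, SE and p may be too small. A pair of libraries stood apart for the members. In F1 the sGC animal SGM4 was the highest of the sGC animals for 25 of the 45 members, against 22.7% of all genes, and its summed level of 4 markers of mural cells (the muscle cells and pericytes of vessels) was 14395, against 4959 to 7059 in the other sGC animals and 3700 to 5507 in Veh. In F2 the Veh animal SGM22 was the highest Veh animal for 27 of the 44 members, against 39.7% of all genes, with a mural marker sum of 8107 against 2599 to 4449 in the other Veh animals. For members whose value moved most without either animal, the value without it is given too. The 6 markers of PVN neurons (AVP, OXT, CRH, TRH, SIM1 and OTP) were detected in every generation, but their sum in F1 was 20619, 30689 and 44930 in the sGC animals SGM4, SGM8 and SGM20, against 91185 to 208706 in Veh. Of the 13 markers of lymphocytes and blood, 1 was among the rows of F1 and of F3 and 0 of F2.

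In F1, sGC resulted in higher expression of 1 member, the decoy receptor IL1R2, out of 45 tested. This was 1 call among 78 over 11874 genes, or 0.657% of all genes, at a false discovery rate of 0.05 with limma. A positive log2 fold change was found for 35 of 45 members (77.8%), against 63.8% of all genes, and the median log2 fold change was 0.20 over members and 0.07 over all genes. It was positive for 25 of 30 receptors and 9 of 14 ligands, with medians of 0.21 and 0.12. At an unadjusted p below 0.05, 10 members were higher, against 12.1% of all genes, and 1 was lower, against 1.46%. Without SGM4 these counts became 6 higher and 2 lower, 33 of 44 members had a positive log2 fold change, and the median of the members less that of all genes went from 0.14 to 0.0798. IL25 (mean 7.6 in Veh and 14.2 in sGC) and CXCL10 (9.4 and 11.4) met the mean of 10 only through sGC. Both are counted among the 35 members, and IL25 also among the 10.

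In F2 and F3 no member passed. In F2, 0 of 44 members and 0% of 11965 genes were called by limma, and 1 member was higher and 6 were lower at an unadjusted p below 0.05, against 2.49% and 9.17% of all genes. A positive log2 fold change was found for 17 of 44 members, against 24.5% of all genes. With size factors, described below, these became 20 of 44 and 49.2%, and the median of the members was within 0.012 of that of all genes without scaling. By role, as deposited, 11 of 13 ligands but 16 of 30 receptors were lower, where 24.5% of all genes had a positive log2 fold change. With size factors the ligand count was again 11 of 13. It was 8 of 13 with size factors and without SGM22, a setting chosen after the data were seen, where 48% of all genes were positive. Whether the ligands differed from the receptors was not tested. IL20, counted among the lower ligands, met the mean of 10 only through Veh (mean 12.6 in Veh and 9.6 in sGC). In F3, 0 of 48 members were called, against 6 genes or 0.0506% of 11866, and 1 was higher and 4 were lower at an unadjusted p below 0.05, against 6.19% and 6.92% of all genes. A positive log2 fold change was found for 22 of 48 members, against 49% of all genes. As deposited, the values of Veh and sGC animals overlapped for every member tested in each generation, while the groups were apart for 2.04% of all genes in F1, 2.4% in F2 and 1.21% in F3.

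Scaling mattered in F1. With median-of-ratios size factors, which bring the animals to a common typical gene, limma called 5 members in F1, namely IL1R2, CXCL12, IL17RD and IL1RAPL1 as higher and IL17D as lower. The same scaling called 17.3% of all genes, a larger share than the 11.1% of members, so the longer list does not set the members apart from other genes. It also changed the balance over all genes, from 72 higher and 6 lower without scaling to 1006 higher and 1052 lower. The groups of 4 of these members (CXCL12, IL17RD, IL1RAPL1 and IL17D) did not overlap once scaled, which was so for 14.2% of all genes. At an unadjusted p below 0.05, 8 members were higher and 3 lower with size factors, against 16% and 17% of all genes, and 32 of 45 had a positive log2 fold change, against 50.7%. Quantile normalization gave 5 higher and 5 lower, against 14.4% and 18.8%, and 26 of 45 positive, against 46.2%. Scaled groups were apart for 0 members in F2 and F3, against 3.21% and 1.26% of all genes. In F2 the size factors called 0 members and 0% of genes, and in F3 0 members and 0.0421% of genes.

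**Figure D1:**
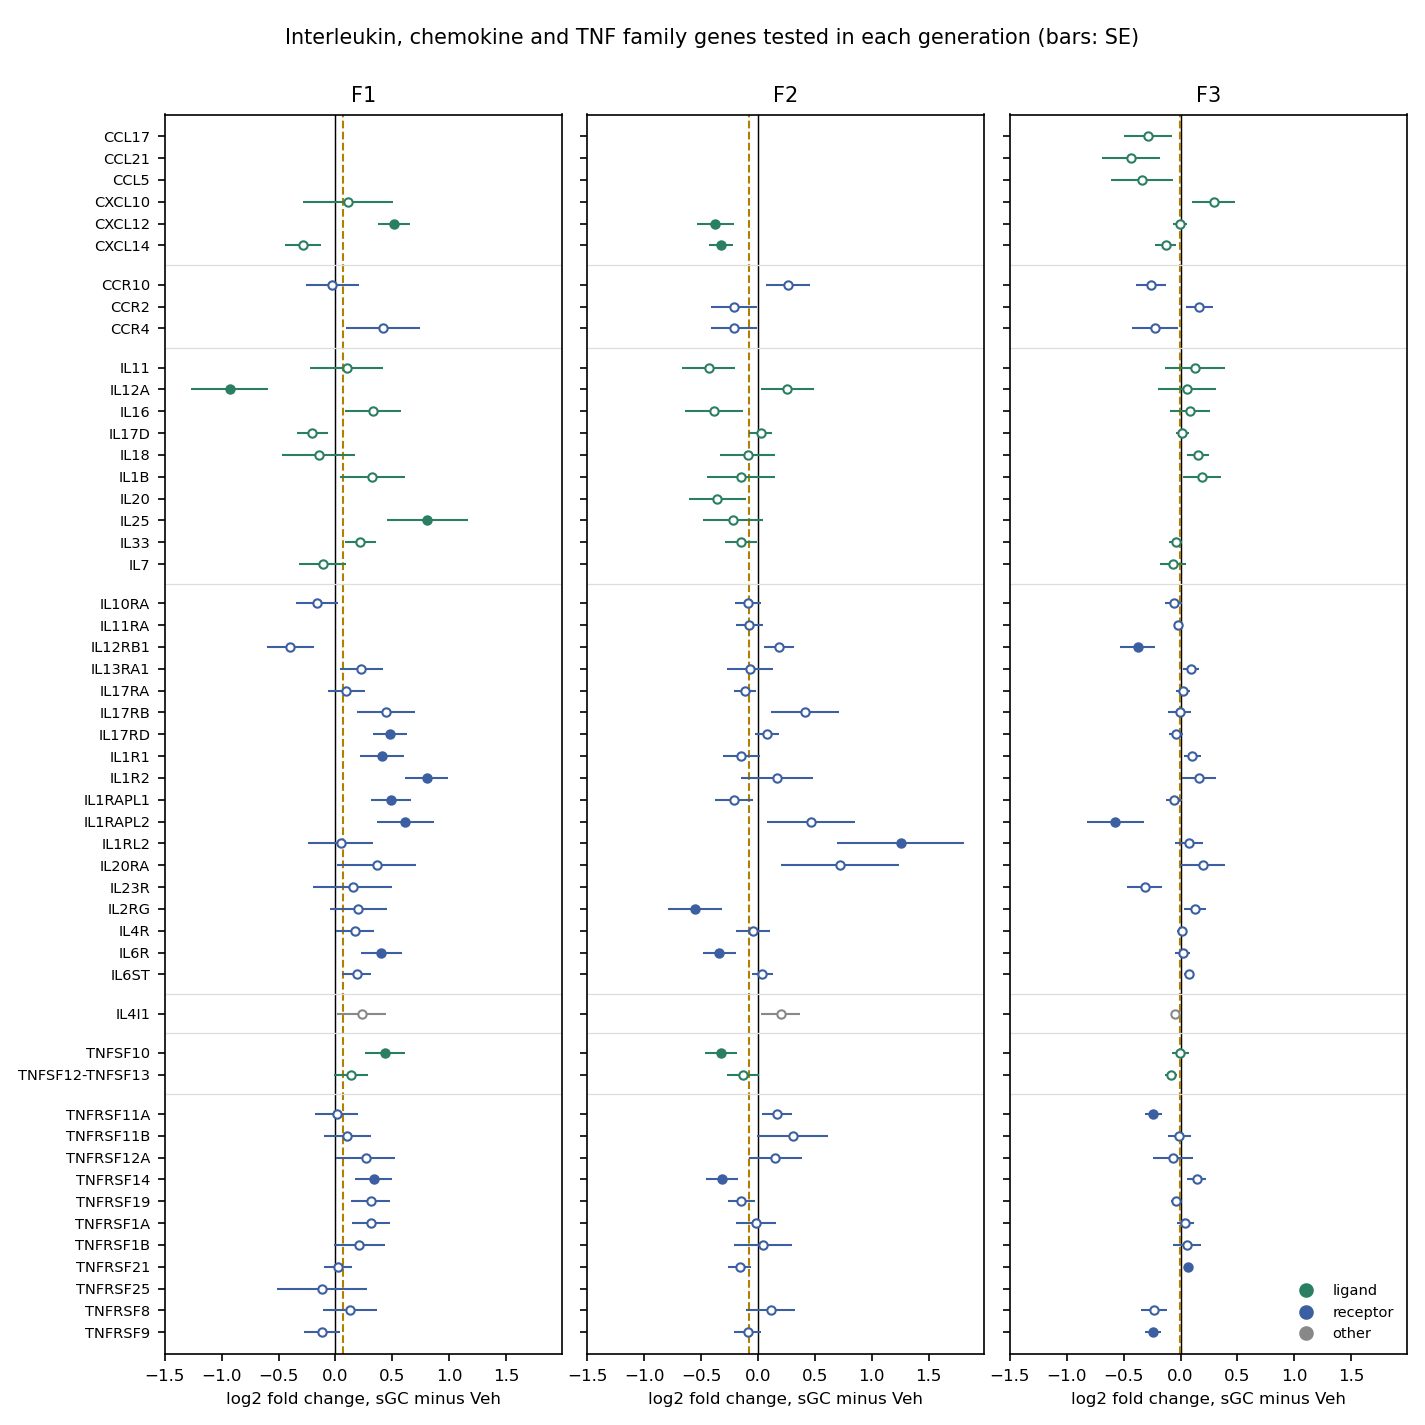
Log2 fold change of sGC against Veh for each tested member in F1, F2 and F3, grouped by family and by ligand or receptor, with bars for 1 SE. Filled points have an unadjusted p below 0.05 and the dashed line is the median of all genes (0.07 in F1, -0.08 in F2, -0.0016 in F3); in F1 most points lie to the right of 0, and IL1R2 at 0.80 is the one called after adjustment.

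Among receptors, the 1 call in F1 was in the IL-1 receptor family. IL1R2 binds IL-1 without passing on a signal and so acts as a decoy. Its values were 364, 493, 366, 308 and 312 in Veh and 968, 376, 719, 665 and 584 in sGC. Every sGC animal lay above the Veh mean, but the lowest of them, SGM8, lay below the highest Veh animal. The Veh mean was 369 ± 74.8 and the sGC mean was 662 ± 215 (SD, n = 5), a ratio of 1.8, with a log2 fold change of 0.80, SE 0.19 and an adjusted p of 0.049 in limma. The call was close to its threshold. The adjusted p was 0.0302 with size factors and 0.0768 without SGM4, where the log2 fold change was 0.65, and 0.0512 with both. It was also over the threshold when any 1 of SGM3, SGM11, SGM15, SGM19 and SGM20 was left out, at up to 0.154. In F2 and F3 IL1R2 was variable, at 383 ± 206 against 412 ± 172 (SD, n = 5) in F2 and 411 ± 93.3 against 455 ± 82.1 (SD, n = 6) in F3.

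IL1R1, the receptor that does signal for IL-1, had a smaller difference in F1. Its values were 186, 116, 135, 124 and 126 in Veh and 276, 215, 144, 149 and 148 in sGC. The highest Veh animal exceeded the 3 lowest sGC animals, and the log2 fold change of 0.41 (SE 0.19) had an adjusted p of 0.36, falling to 0.25 on the log2 scale without SGM4. IL1RAPL1 and IL1RAPL2 are IL-1 receptor-like proteins of neurons that organise synapses. IL1RAPL1 stood at 146, 135, 120, 84 and 124 in Veh and at 162, 218, 175, 158 and 139 in sGC. Only SGM20, at 139, lay within the Veh range as deposited, and the log2 fold change was 0.49 (SE 0.18, adjusted p = 0.21, and 0.0438 with size factors). IL1RAPL2 had low values of 31, 34, 26, 19 and 23 in Veh against 30, 52, 38, 37 and 49 in sGC. Its log2 fold change of 0.61 (SE 0.25, adjusted p = 0.273) was 0.72 without SGM4, the animal with the lowest sGC value. IL1RL2, the receptor of the IL-36 cytokines, was in F1 at 193 ± 57.5 in Veh and 213 ± 88.6 in sGC (SD, n = 5).

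The IL-17 receptor family gave IL17RD, a membrane protein also known as an inhibitor of fibroblast growth factor signalling. Its values in F1 were 480, 518, 411, 332 and 361 in Veh and 644, 640, 588, 607 and 436 in sGC. All sGC animals but SGM20 exceeded every Veh animal, and all 5 did with size factors, at 481 to 618 against 385 to 457. The log2 fold change was 0.48 with an SE of 0.15, and the adjusted p was 0.132 without and 0.00536 with size factors. IL17RB, a receptor of IL-25, was at 32.2 ± 12.4 in Veh and 42.4 ± 7.27 in sGC (SD, n = 5, adjusted p = 0.481 in limma), and IL17RA, the shared subunit, was at 187 ± 39.0 and 197 ± 18.9. In the later generations IL17RD was at 432 ± 48.1 against 458 ± 57.3 (SD, n = 5) in F2 and 469 ± 45.5 against 457 ± 30.4 (SD, n = 6) in F3.

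Other receptors in F1 had smaller differences. IL6R, which binds IL-6 ahead of the signalling chain IL6ST (gp130), was at 293, 280, 251, 224 and 229 in Veh and at 568, 359, 272, 308 and 251 in sGC. SGM4 held a value of 568 far above the rest, and the log2 fold change fell from 0.40 to 0.21 when it was left out. IL6ST itself was at 4107 ± 659 and 4659 ± 596 (SD, n = 5, adjusted p = 0.58 in limma). TNFRSF14, the receptor that meets the TNF ligand LIGHT, stood at 155, 139, 131, 126 and 117 in Veh and at 200, 191, 137, 164 and 156 in sGC, with a log2 fold change of 0.34 (SE 0.16, adjusted p = 0.364) that was 0.27 without SGM4. Of the 11 TNF receptors tested in F1, 9 had a positive log2 fold change, against 63.8% of all genes. With size factors 7 of them did, against 50.7%. The main receptor of TNF, TNFRSF1A, was at 367 ± 96.6 in Veh and 446 ± 60.7 in sGC (SD, n = 5, adjusted p = 0.419 in limma), and the death receptor TNFRSF21 was at 2554 ± 217 and 2613 ± 377.

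Among ligands in F1, CXCL12 had the lowest p. This chemokine is made by stromal, vascular and meningeal cells and guides migrating neurons and leukocytes. Its values were 1068, 1018, 917, 834 and 824 in Veh and 1809, 1434, 1158, 1296 and 1047 in sGC. Only the lowest sGC animal, SGM20, lay below the highest Veh animal, while with size factors the groups were apart, at 848 to 1017 and 1109 to 1735. The mean was 932 ± 109 and 1349 ± 296 (SD, n = 5), a ratio of 1.45, and the log2 fold change was 0.51 (SE 0.14). CXCL12 did not pass in limma, with an adjusted p of 0.0853, and passed with size factors at 0.0189. Without SGM4 its log2 fold change was 0.40, with an adjusted p of 0.242, or 0.0132 when size factors were used too.

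The plot of F1 members by animal also shows ligands with lower values in sGC. IL17D, a member of the IL-17 family found widely outside the immune system, stood at 392, 443, 363, 320 and 323 in Veh and at 361, 322, 290, 342 and 280 in sGC. The deposited ranges overlapped, while with size factors Veh was at 369 to 381 and sGC at 278 to 346. The log2 fold change was -0.20 (SE 0.14, adjusted p = 0.579), reaching -0.26 with an adjusted p of 0.0198 under size factors. IL12A, the p35 subunit that IL-12 and IL-35 have in common, was low and scattered, at 49, 47, 37, 37 and 22 in Veh and 11, 15, 26, 46 and 12 in sGC. The log2 fold change was -0.93 (SE 0.34) with an adjusted p of 0.212, and SGM12, at 26, and SGM16, at 46, lay inside the Veh range. IL12RB1, a receptor subunit of IL-12 and IL-23, was at 371 ± 36.5 and 300.2 ± 116 (SD, n = 5, adjusted p = 0.415 in limma).

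TNFSF10, the death ligand known as TRAIL, was at 545, 630, 488, 400 and 454 in Veh and at 1080, 789, 578, 513 and 540 in F1 sGC. SGM4 again held the highest value, and the log2 fold change fell from 0.43 to 0.26 without it. IL25, a ligand of IL17RB, was barely detected at 11, 9, 7, 5 and 6 in Veh and 14, 22, 9, 15 and 11 in sGC, so its log2 fold change of 0.81 (SE 0.36, adjusted p = 0.313) rests on low values. Its Veh mean of 7.6 was below the filter of 10, which it met only through its sGC mean of 14.2. The alarmin IL33 was at 472 ± 70.9 and 547 ± 62.8 (SD, n = 5, adjusted p = 0.52 in limma), and the inflammatory ligand IL1B was at 25.0 ± 9.51 and 30.4 ± 7.23.

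**Figure D2:**
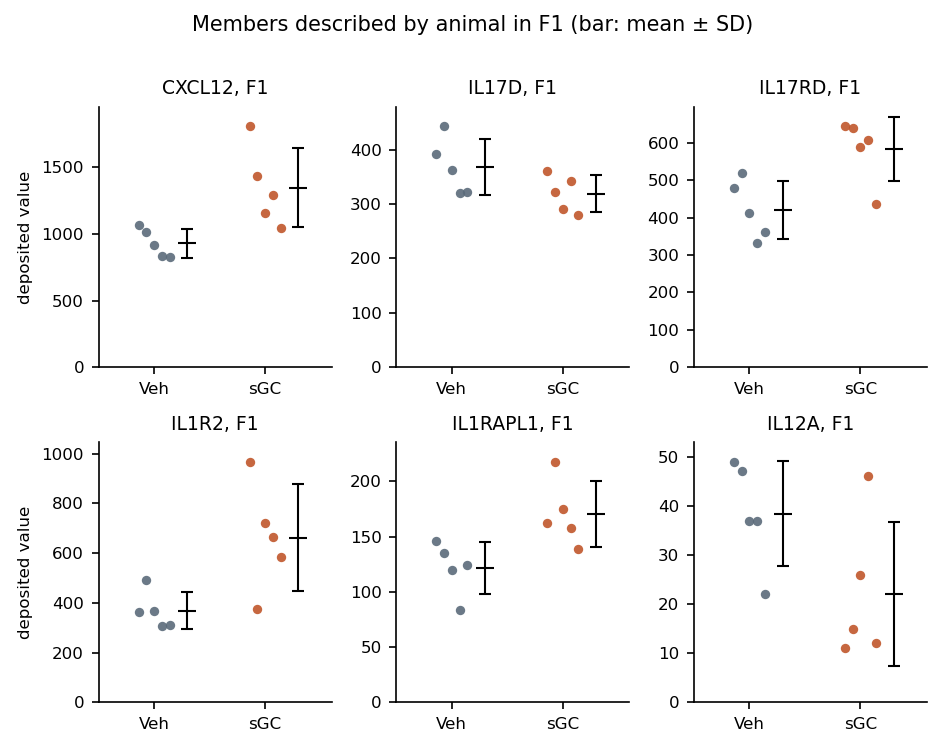
Deposited value of each F1 animal for the 5 members called with or without size factors and for IL12A, with Veh in grey, sGC in orange and the mean ± SD at the right of each group. IL1R2, CXCL12, IL17RD and IL1RAPL1 have all 5 sGC animals above the Veh mean, IL17D has all 5 below it, and in each panel the deposited values overlap. With size factors, not drawn, the groups of CXCL12, IL17RD, IL1RAPL1 and IL17D are apart.

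No marker of another cell type was called in F1 without scaling, and 63.8% of all genes had a positive log2 fold change. Of the endothelial markers, 11 of 12 had a positive log2 fold change and their sum was 9367 to 13762 in Veh and 11141 to 19531 in sGC. All 4 mural markers tested had one too, with sums of 3700 to 5507 and 4959 to 14395, and so had 10 of 13 microglial markers, with sums of 4746 to 6705 and 5222 to 9127. With size factors 1 microglial marker was called higher and 1 lower, and 0 endothelial and 0 mural markers were called. Astrocyte markers had 7 of 8 positive. Oligodendrocyte markers had 7 of 7 positive, with sums of 37981 to 46853 in Veh and 37206 to 101827 in sGC. SGM8 held the highest of these sums, followed by SGM4 at 67919. The endothelial sum of SGM8 was 18552, beside 19531 in SGM4. None of the PVN neuron markers had one, with 5 of 6 lower at an unadjusted p below 0.05 and 1 called lower with size factors. No marker in these lists was at 0 in every animal, and the part of any of them in the results above was not tested. Per animal, the median deviation of the members from their Veh means, less that of all genes, was 0.42 on the log2 scale in SGM4 and 0.12, 0.05, 0.18 and 0.14 in SGM8, SGM12, SGM16 and SGM20, against -0.02 to 0.07 in Veh. By this measure all sGC animals but SGM12 lay above the highest Veh animal. The Veh mean includes each Veh animal itself but no sGC animal, so Veh animals lie closer to it by construction.

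**Figure D3:**
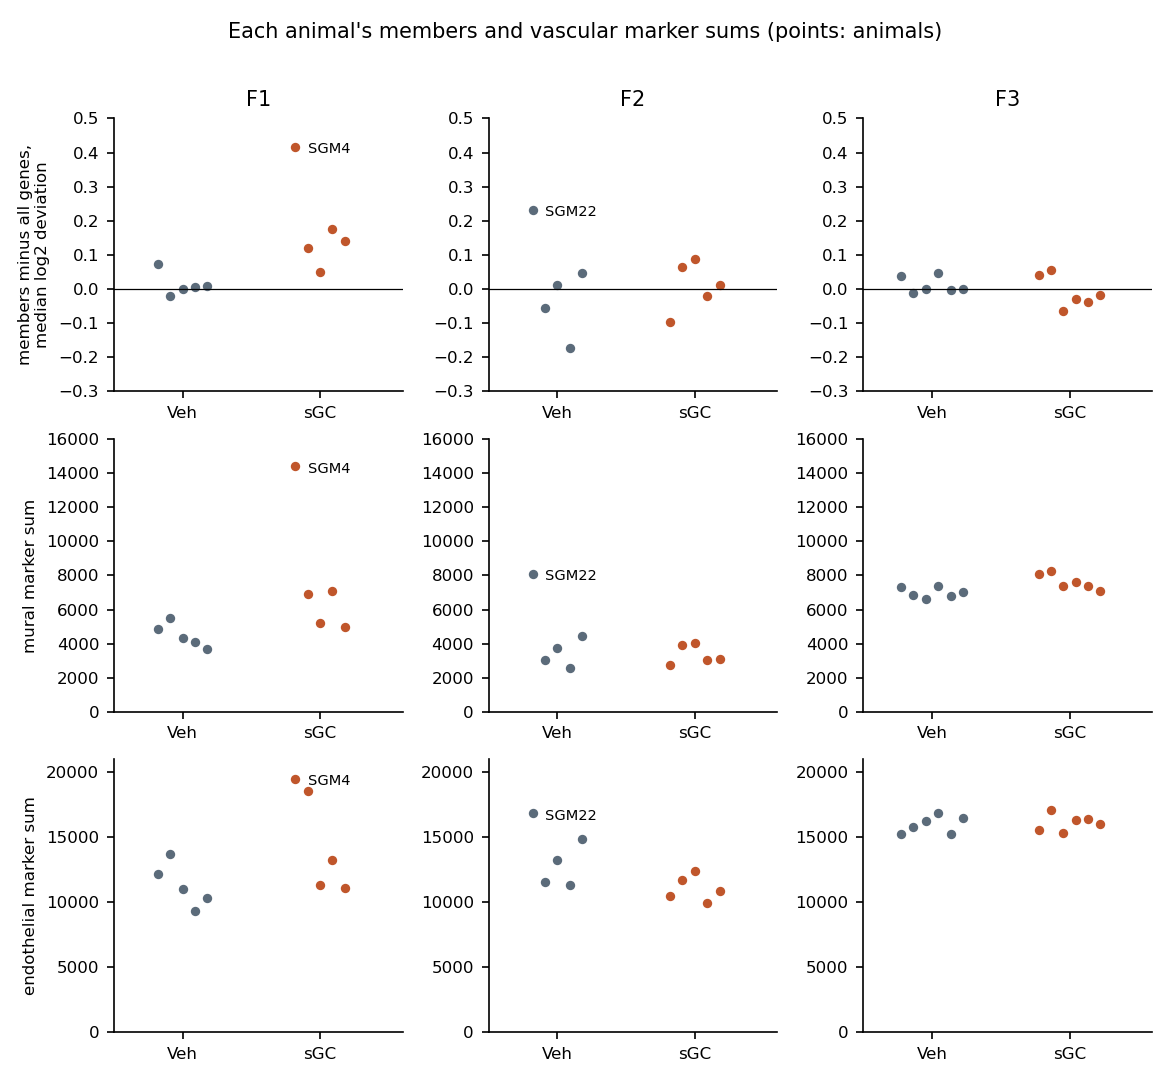
Top row, each animal's median log2 deviation of the members from the Veh mean, less the same median over all genes; middle and bottom rows, each animal's summed value of the mural and endothelial markers, by generation and treatment. SGM4 of F1 sGC has the highest members (0.42) and mural sum (14395), and SGM22 of F2 Veh has the highest values of F2 (0.23 and 8107).

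In F2, 11 of 13 ligands were lower in sGC without passing the test, where 24.5% of all genes had a positive log2 fold change. CXCL14, a chemokine of epithelia and interneurons, had values of 1426, 1111, 1437, 1129 and 1239 in Veh and 1177, 1035, 1045, 994 and 815 in sGC. Every sGC animal lay below the Veh mean, and only SGM21 of F2 exceeded the lowest Veh animal. The means were 1268 ± 157 and 1013 ± 130 (SD, n = 5), and the log2 fold change of -0.33 (SE 0.11) had an adjusted p of 0.266. Leaving out SGM22 gave -0.28. The sign was the same in F1, at 1007 ± 164 and 845 ± 255 (SD, n = 5), and in F3, at 892 ± 124 and 814 ± 103 (SD, n = 6), with log2 fold changes of -0.28 and -0.13 and adjusted p of 0.467 and 0.602 in limma.

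The receptors with the lowest p in F2 were lower as well, IL1RL2 excepted. IL6R was at 414, 269, 311, 233 and 350 in Veh and at 233, 230, 275, 224 and 263 in sGC. The sGC animals sat together at the lower end of the Veh range, with a log2 fold change of -0.34 (SE 0.14, adjusted p = 0.394) that was -0.23 without SGM22. IL2RG, the gamma chain that the receptors of IL-2, IL-7 and IL-15 have in common, was at 54, 26, 52, 42 and 56 in Veh and at 40, 32, 30, 26 and 24 in sGC. The Veh animal SGM23 lay among the sGC animals, and the log2 fold change was -0.55 (SE 0.23, adjusted p = 0.394). Without SGM22 the count of members lower at an unadjusted p below 0.05 went from 6 to 1, and the count higher from 1 to 3.

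IL1RL2 was the one member higher in F2 at an unadjusted p below 0.05. Its Veh values of 226, 79, 61, 11 and 70 spread widely, and the sGC values were 113, 137, 228, 117 and 174. Every sGC animal was above 4 of the 5 Veh animals, while SGM22 was as high as the highest sGC animal. The log2 fold change of 1.26 (SE 0.56, adjusted p = 0.416) depended on the Veh animals, being 1.72 without SGM22 (adjusted p = 0.0718) and 0.66 without SGM28, whose value was 11. IL1R2, which lies in the same gene cluster in mammals, was also highest in SGM22 at 728 among Veh and lowest in SGM28 at 198.

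No marker of these lists was called in F2 either, with or without size factors, and 24.5% of all genes had a positive log2 fold change. None of the 12 endothelial, 4 mural or 12 microglial markers had a positive log2 fold change, with endothelial sums of 11372 to 16854 in Veh and 9936 to 12403 in sGC, mural sums of 2599 to 8107 and 2729 to 4067, and microglial sums of 3902 to 5897 and 3472 to 4876. All 9 oligodendrocyte markers were lower at an unadjusted p below 0.05, with sums of 130733 to 234065 and 69629 to 111420. PVN neuron markers were the other way, 6 of 6 positive and 4 of them at an unadjusted p below 0.05, with sums of 57323 to 96811 and 77048 to 170654, and astrocyte markers had 5 of 8 positive. No marker in these lists was at 0 in every animal, and their part in the F2 values was not tested.

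In F3 the animals of a group were closer to one another, with a median coefficient of variation of 10% over members in Veh, against 19.5% in F1 and 20.5% in F2. The authors removed batch and residual variation from F3 in more steps than from F1 and F2, and whether that made the spread smaller was not tested. The member with the lowest p was TNFRSF9 (4-1BB), a costimulatory receptor of T cells, with a lowest, median and highest value of 129, 143 and 167 in Veh and 112, 122 and 130 in sGC. The groups met at the lower end of the Veh range, and the log2 fold change was -0.24 (SE 0.07, adjusted p = 0.186). TNFRSF11A (RANK), the receptor of the bone and fever signal RANKL, was at 84, 95.5 and 102 in Veh and 70, 80 and 86 in sGC, with a log2 fold change of -0.24 (SE 0.07, adjusted p = 0.205). Its decoy TNFRSF11B (osteoprotegerin) was at 75.8 ± 7.08 and 75.7 ± 11.1 (SD, n = 6).

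TNFRSF21, a death receptor of neurons and oligodendrocytes, was the one member higher in F3 at an unadjusted p below 0.05. Its lowest, median and highest values were 2729, 2817.5 and 2911 in Veh and 2866, 2925.5 and 3114 in sGC, so that every sGC animal lay above the Veh mean by a small margin. The log2 fold change was 0.07 (SE 0.02, adjusted p = 0.264). IL12RB1 was at 235, 293.5 and 334 in Veh and 152, 224.5 and 299 in sGC, with a log2 fold change of -0.37 (SE 0.15, adjusted p = 0.32). IL1RAPL2 was at 27, 55 and 65 in Veh and 18, 31.5 and 56 in sGC, and its log2 fold change of -0.58 (SE 0.25, adjusted p = 0.352) was opposite in sign to the 0.61 of F1.

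The second sequencing batch of F3 held SGM21 and SGM22 of the sGC group and repeat libraries of the Veh animals SGM5 and SGM9, whose repeats were not analysed here, so no comparison within that batch was made. In the first batch alone, with 6 Veh and 4 sGC animals, the log2 fold change was -0.23 for TNFRSF9, -0.27 for TNFRSF11A, 0.08 for TNFRSF21, -0.35 for IL12RB1 and -0.32 for IL1RAPL2. Their adjusted p ran from 0.379 to 0.717 in limma. SGM22 of F3 had the lowest IL1RAPL2 value, 18. Endothelial markers had 5 of 12 with a positive log2 fold change in F3, microglial markers 11 of 13 and mural markers 6 of 7, against 49% of all genes. Mural sums were 6638 to 7385 in Veh and 7111 to 8275 in sGC. Oligodendrocyte markers had 8 of 8 positive, astrocyte markers 4 of 8, fibroblast and leptomeningeal markers 4 of 8, neuron markers 1 of 6 and PVN neuron markers 2 of 6. The part of these cell types in the F3 values was not tested.

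**Figure D4:**
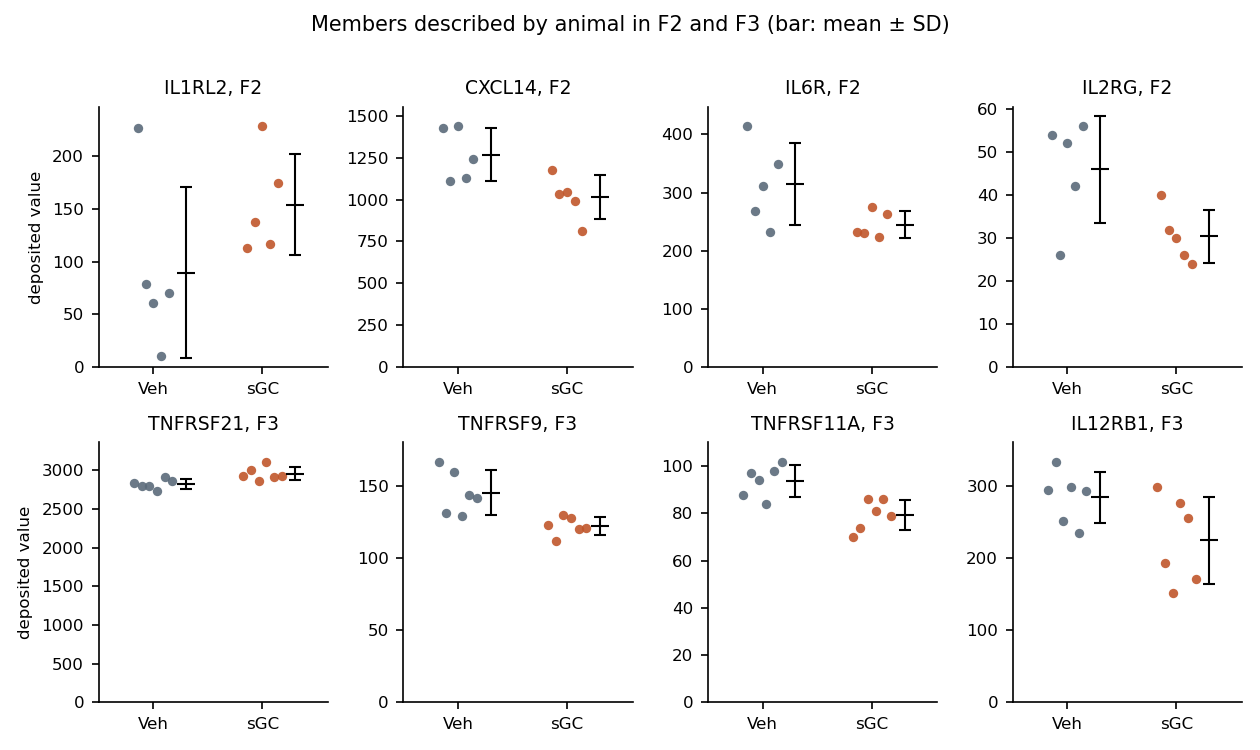
Deposited value of each animal for the members described in F2 (top row) and F3 (bottom row), with Veh in grey, sGC in orange and the mean ± SD at the right of each group. The F2 Veh values of IL1RL2 run from 11 to 226. In F3 the sGC values of IL12RB1 run from 152 to 299, while TNFRSF9 and TNFRSF11A have every sGC animal below the Veh mean.

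CXCL12 lay on opposite sides of its Veh level in F1 and F2. It was at 1654, 1016, 1526, 1174 and 1553 in F2 Veh and at 1054, 1077, 1383, 740 and 1099 in F2 sGC. Every F2 sGC animal lay below the Veh mean, where every F1 sGC animal lay above it, and the F2 log2 fold change was -0.37 (SE 0.16, adjusted p = 0.404), or -0.30 without SGM22. In F3 the lowest, median and highest values were 1252, 1361 and 1439 in Veh and 1194, 1403 and 1517 in sGC, with a mean of 1356 in both groups. TNFSF10 and TNFRSF14 showed the same order of signs in F1 and F2. TNFSF10 was at 826, 519, 607, 476 and 698 in F2 Veh and at 452, 565, 517, 411 and 514 in F2 sGC, with a log2 fold change of -0.33 (SE 0.14, adjusted p = 0.405), or -0.22 without SGM22, after 0.43 in F1. TNFRSF14 was at 245, 174, 189, 148 and 176 in F2 Veh and at 127, 151, 173, 145 and 145 in F2 sGC, with -0.32 (SE 0.14, adjusted p = 0.407), or -0.21 without SGM22, after 0.34. In F3 TNFRSF14 was at 114.8 ± 8.28 in Veh and 127.5 ± 15.9 in sGC (SD, n = 6), with 0.14 (adjusted p = 0.488 in limma). TNFSF10 had scaled F3 means of 586.9 in Veh and 585.5 in sGC. No test between generations was made for any member, since the tables were normalised apart. Over all members, relative to the median of all genes, 22 of 41 (53.7%) had opposite signs in F1 and F2, against 47% of all genes, and 19 of 43 (44.2%) had opposite signs in F1 and F3, against 58.7%.

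**Figure D5:**
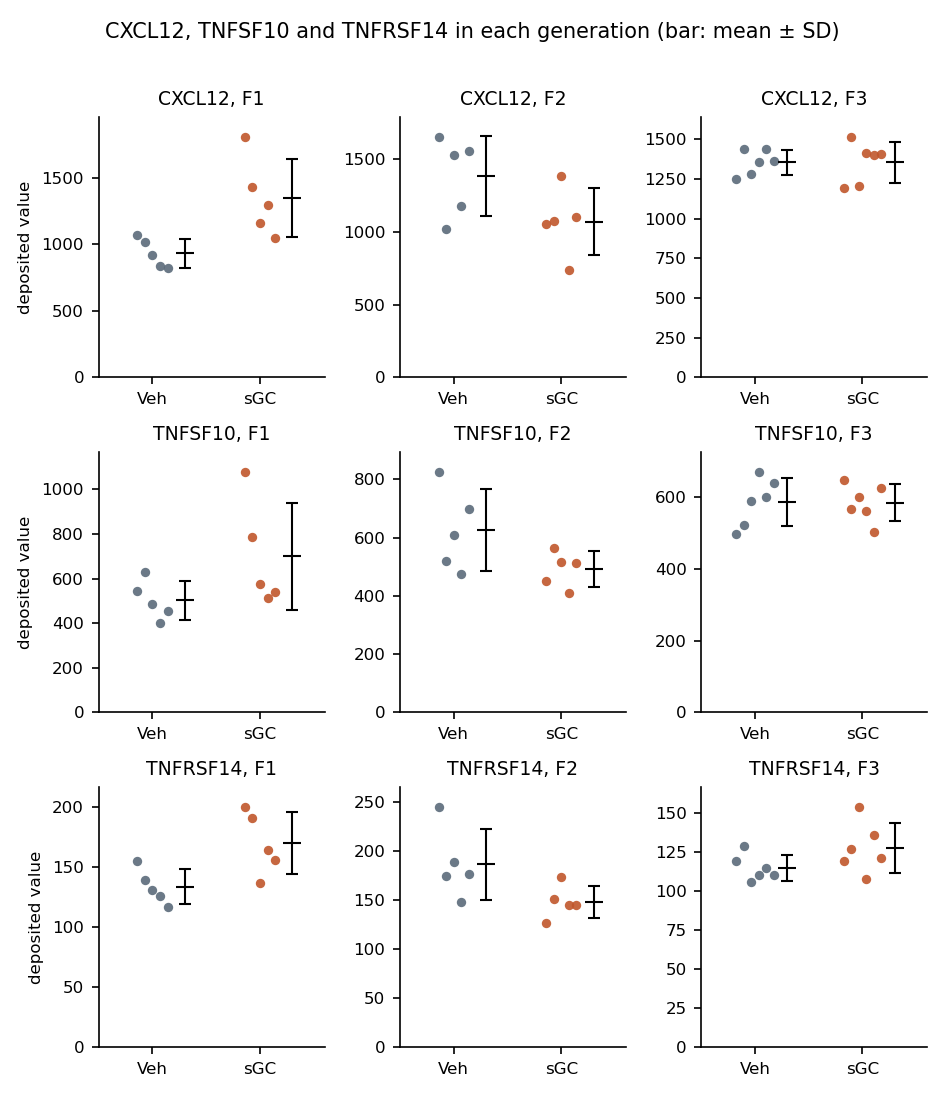
Deposited value of each animal for CXCL12, TNFSF10 and TNFRSF14 in F1, F2 and F3, with Veh in grey, sGC in orange and the mean ± SD at the right of each group; axes are not comparable between generations. In each row all sGC animals lie above the Veh mean in F1 and below it in F2 as deposited, and with size factors, not drawn, 4 of 5 lie above it in F1 for TNFSF10 and TNFRSF14.

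Some ligands could be set beside a receptor. CXCL12 acts through CXCR4, which was not among the named rows of any generation, and is removed by the scavenger ACKR3. ACKR3 was at 210 ± 22.2 and 205 ± 62.2 in F1 (SD, n = 5), with a log2 fold change of -0.08, and at 250.2 ± 27.8 and 202 ± 14.2 in F2, with -0.30 (adjusted p = 0.296 in limma). In F3 ACKR3 was at 190 ± 26.1 and 210.2 ± 37.4 (SD, n = 6), with 0.14. IL1B had log2 fold changes of 0.32, -0.15 and 0.19, beside 0.41, -0.15 and 0.10 for its receptor IL1R1. CD93, an endothelial receptor that binds IL-17D, was at 1447 ± 305 in Veh and 2312 ± 1390 in sGC in F1 (SD, n = 5, adjusted p = 0.312 in limma), where IL17D was lower, and SGM4 alone reached 4704. IL11 had log2 fold changes of -0.43 in F2 and 0.13 in F3, beside -0.08 and -0.02 for IL11RA. TNFRSF12A, the receptor of TWEAK, had 0.27, 0.15 and -0.07, beside 0.14, -0.13 and -0.08 for the row named TNFSF12-TNFSF13, whose 2 neighbouring ligand genes could not be told apart.

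Chemokines other than CXCL12 and CXCL14 had low values. In F3, 7 of the 9 chemokine ligands and receptors tested had a negative log2 fold change, where 49% of all genes had a positive one. The median over the 9 was -0.23 against -0.0016 for all genes, and none passed. The 7 include CXCL12, with scaled means of 1354 in Veh and 1356 in sGC. They also include CCL5, CCL17 and CCR4, with means over both groups of 10.5, 17.17 and 20.08. CCL5 met the mean of 10 only through Veh (12 in Veh and 9 in sGC). CCL21, a ligand that draws lymphocytes through CCR7, was at 72.8 ± 25.3 and 54.2 ± 20.8 (SD, n = 6, adjusted p = 0.499 in limma), and CCL5 and CCL17 had log2 fold changes of -0.34 and -0.29. CXCL10, an interferon-induced chemokine, was at 11.3 ± 2.80 and 14.0 ± 2.61. CCR10 was at 40.7 ± 6.28 and 33.8 ± 5.23 in F3 and at 39.4 ± 9.29 and 46.8 ± 6.42 in F2 (SD, n = 5), and CCR2, a receptor of monocytes, had log2 fold changes of -0.21 in F2 and 0.17 in F3.

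The remaining interleukin and TNF receptors did not pass in any generation. IL4R went from 361 ± 64.0 in Veh to 411 ± 98.6 in sGC of F1 (SD, n = 5), from 387 ± 80.8 to 372 ± 50.6 in F2 (n = 5) and from 404 ± 24.6 to 407 ± 13.4 in F3 (n = 6), with adjusted p of 0.718, 0.92 and 0.949 in limma. IL10RA, which receives the anti-inflammatory signal IL-10, had log2 fold changes of -0.16, -0.09 and -0.06, and IL13RA1 had 0.23, -0.07 and 0.09. TNFRSF1B, the second TNF receptor, had 0.21, 0.04 and 0.06, and TNFRSF19, a receptor of progenitor cells, had 0.31, -0.15 and -0.04. IL20RA and IL23R had values of 30 or less in each group mean, where the precision is low. The 5 genes never tested for low values were IL15, IL21R, IL27RA, TNFRSF4 and TNFRSF18.

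IL4I1, an enzyme that breaks down phenylalanine, had very different values between tables. It was at 45.6 ± 7.96 and 53.8 ± 9.93 in F1 and at 53.0 ± 8.77 and 61.0 ± 10.5 in F2 (SD, n = 5), but at 1392 ± 35.0 and 1350 ± 43.3 in F3 (SD, n = 6). NUP62, a nuclear pore gene that overlaps IL4I1 in mammals, was at 2352 ± 460 in F1 Veh and 1270 ± 131 in F2 Veh and was not among the F3 rows. Whether reads of the overlapping genes were assigned alike in each generation was not tested, and the IL4I1 values of F3 are uncertain.

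Other genes of the same pathways were read from a list of 103 genes that are no members. The list holds further ligands and receptors as well as signalling proteins, and 76 were tested in F1, 75 in F2 and 76 in F3. None passed in limma, while 9 were higher and 0 lower at an unadjusted p below 0.05 in F1 (12.1% and 1.46% of all genes), 1 higher and 6 lower in F2 (2.49% and 9.17%), and 4 higher and 5 lower in F3 (6.19% and 6.92%). In F1 MYD88, the adaptor of IL-1 receptors, was at 238 ± 39.1 and 303 ± 18.0 (SD, n = 5, adjusted p = 0.261 and 0.0155 with size factors). IRAK3, a brake on the same pathway, was at 188 ± 26.3 and 248 ± 35.1 with an adjusted p of 0.231, or 0.0391 with size factors. With size factors 8 of the 76 passed in F1, against 17.3% of all genes, and 7 of them rose (MYD88, IRAK3, TRAF3, TRAF5, PIAS1, LTB and CX3CR1). In F3 the lowest p was that of SOCS5, a suppressor of cytokine signalling, at 1557 ± 50.7 and 1704 ± 55.8 (SD, n = 6, log2 fold change 0.13, adjusted p = 0.0964). LTB, a TNF family ligand whose symbol lies outside the rule, was at 493 ± 51.0 and 626 ± 60.1 in F1 and at 458 ± 43.3 and 386 ± 37.9 in F3, with log2 fold changes of 0.34 and -0.25.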

How the data were processed

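PVN libraries of 32 animals were analysed, and 2 re-sequenced F3 Veh libraries were not used here. The authors aligned reads to the cavPor3 assembly (TopHat2, per the submitters' processing notes), counted them per gene, corrected the F3 batches with ComBat and applied RUVSeq, which normalises by residuals. As deposited, these counts are rounded to whole numbers and were treated as a score with no fixed range and not as raw reads. The tables also hold the authors' own edgeR results, which were not used.

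Each table was fitted alone with limma 3.58.1 in R 4.3.3 on the log2 scale after a pseudocount of 1 was added, using all genes with a mean of at least 10, two-sided, with Benjamini-Hochberg adjustment over all genes tested and a threshold of 0.05. Fold changes on this scale understate those of low genes. Members were named by animal (in F3 by lowest, median and highest value) if called with or without size factors, if among the 3 lowest p-values below 0.05 in a direction, or if groups did not overlap. Other members given by animal were chosen after their values were seen. The members, roles and lists were chosen with earlier results of these data known. The study's sample sizes count independent litters, and the labels do not name them. Alternatives were other scalings, pseudocounts and filters, the removed directions as covariates (1, 1 and 2 in F1, F2 and F3), the F3 batch and leaving out each animal. The fit was tested on simulated data. Among genes with high mean values, no 2 libraries of a table shared more than 1.17% of values, and lower genes were not compared. The paper gives an approximate depth per sample, but the reads of each library are unknown here, so no counting interval is given. Plots were drawn with matplotlib. The result of 1 gene of the pathway list is not reported here.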

Additional observations from a re-analysis of the deposited data

Results flagged for a closer look

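As deposited, CXCL12, TNFSF10, IL25 and TNFRSF14 had every sGC animal above the Veh mean in F1 and every sGC animal below it in F2. The ratio of the sGC to the Veh mean was 1.45 in F1 and 0.773 in F2 for CXCL12, 1.39 and 0.787 for TNFSF10, 1.87 and 0.832 for IL25, and 1.27 and 0.795 for TNFRSF14. CCR10 had every sGC animal above the Veh mean in F2, with a ratio of 1.19, and every one below it in F3, with 0.832. With size factors CXCL12 and CCR10 kept these positions, while 4 of 5 sGC animals lay above the Veh mean in F1 for TNFSF10 and for TNFRSF14, and 4 of 5 below it in F2 for IL25. The difference between generations was not tested in any of these. IL25 met the filter in F1 only through sGC, with a mean of 7.6 in Veh and 14.2 in sGC. An F1 sGC group wholly above its Veh mean was found for 12 of 45 members, against 16.9% of all genes, and an F2 sGC group wholly below it for 9 of 44, against 20.7%. SGM4 was the highest F1 sGC animal for CXCL12 (1809), TNFSF10 (1080) and TNFRSF14 (200), and SGM22 the highest F2 Veh animal for the same 3 genes. Without SGM4 their F1 log2 fold changes were 0.40, 0.26 and 0.27, and without SGM22 their F2 values were -0.30, -0.22 and -0.21.

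The IL17RD value of SGM20 in F1 sGC, 436, lay far below the other 4 sGC animals, the nearest of which was at 588. It was the 1 group of 28 examined with an end value that far apart, and chance gives about 1 in 20. With size factors it was at 481 against 563 for the nearest, a gap of 0.602 of the group's range, under the 0.71 needed at 5 animals.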

How the results depend on the processing

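No paired analysis was possible because the animal numbers do not pair Veh with sGC animals. In F1, scaling moved the counts most. Of 11874 genes, 78 were called without scaling, 2058 with size factors, 1942 with scaling to the median total and 2084 with quantile normalization, and the members called went from 1 to 5, 5 and 4. No member (0) was called with the removed directions as covariates, with a pseudocount of 10 or without the filter, since the adjusted p of IL1R2 was then 0.0527, 0.0528 and 0.0533. Leaving out 1 animal at a time gave 0 to 3 members and 15 to 474 genes in F1. IL1R2 lost its call without any 1 of the Veh animals SGM3, SGM11, SGM15 and SGM19 or of the sGC animals SGM4 and SGM20, with an adjusted p of up to 0.154, but its log2 fold change stayed between 0.59 and 0.99 over all 19 alternatives. The F1 median of the members less that of all genes, 0.14, was 0.087 with quantile normalization and 0.0798 (without SGM4) to 0.225 with 1 animal left out. Size factors without SGM4, a setting chosen after seeing the data, gave 1495 genes, 4 members (CXCL12, IL17D, IL17RD and IL1RAPL2) and a median difference of 0.0796. In F2, 0 members were called under any of 19 alternatives, while genes called went from 0 to 42 with quantile normalization, 17 with a mean of at least 50 and 0 to 114 with 1 animal left out. In F3, 0 members were called under any of 22 alternatives, while genes called went from 6 to 1 with the removed directions as covariates, 2 in the first batch only, 3 with batch as a covariate and 1 to 15 with 1 animal left out. The cause of these shifts was not tested. No named member reversed its sign. IL12A in F1 and IL2RG in F2 fall below a mean of 50 and have no value there. The 5 to 6 animals a group limit what can be called, and values near 10 carry the least precision.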
